A study of Mus musculus with 12 samples.

Results

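The mouse genes Fcgr1, Fcgr3, Fcgr4, Fcgr2b, Fcer1g and Fcgrt, which encode receptors for the constant (Fc) part of antibodies or a chain of them, were followed over every group of a study of dendritic cells. They were chosen by name, as the rows with these symbols in both deposited count tables, and are 6 of the 32190 symbols in each table. Antibodies that have bound an antigen are taken up by dendritic cells and macrophages through Fc gamma receptors, and the outcome depends on a balance of opposed receptors. FcγRI (Fcgr1, the high-affinity receptor), FcγRIII (Fcgr3) and FcγRIV (Fcgr4) are activating: they have no signalling motif of their own in the mouse and use the common FcR gamma chain (Fcer1g), whose ITAM motif recruits the kinase Syk. FcγRIIB (Fcgr2b) is the inhibitory receptor, whose ITIM motif recruits the phosphatase SHIP1 (Inpp5d). The neonatal receptor FcRn (Fcgrt) pairs with beta-2 microglobulin (B2m) and works inside endosomes, where it protects IgG from degradation and helps to direct immune complexes to antigen processing.

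The data are 12 RNA-seq libraries in 6 groups of 2. Late and early tumoral dendritic cells (DCs) were sorted at day 14 and day 7 from tumors of MC38, a mouse colon carcinoma line, that grew in wild-type (WT) mice whose TdTomato reports Zbtb46, a gene that marks conventional DCs. Bone marrow-derived DCs (BMDCs), labelled with a time of 9 days, came from mice labelled as Pde5 knockout (KO) or from WT mice. Cells of either genotype label had 200 ng/ml lipopolysaccharide (LPS), a bacterial Toll-like receptor ligand, for 12 h, or no stimulation. The cell type label of all 12 libraries is immune cells. No source used here says whether replicates were separate animals or cultures, whether animals were pooled, or which allele the knockout carries, so a p-value here measures only how these libraries vary, and that variation may be technical.

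The 6 genes were located on GRCm38 (mm10) with the GENCODE vM21 annotation. Fcgr2b (ENSMUSG00000026656.15, chr1:170958617-170976547, minus strand), Fcgr4 (ENSMUSG00000059089.4, chr1:171018920-171029761, plus strand) and Fcgr3 (ENSMUSG00000059498.13, chr1:171051174-171064935, minus strand) lie beside each other, with Fcer1g (ENSMUSG00000058715.11, chr1:171229572-171234365, minus strand) further along the same chromosome. Fcgr1 (ENSMUSG00000015947.10) lies at chr3:96282909-96293969 and Fcgrt (ENSMUSG00000003420.8) at chr7:45092990-45103851, both on the minus strand. Fcgr3 and Fcgr2b are near copies in part of their sequence. Of the 50-base stretches of Fcgr3 transcripts, 10.2% also occur in Fcgr2b transcripts, as do 2.7% of the 100-base stretches. Of the 50-base stretches of Fcgr2b transcripts, 4.48% occur in Fcgr3 transcripts and 6.72% in those of any other gene, Fcgr3 included. Fcgr2b thus also shares sequence with a gene outside the 6. The other 4 genes share 0 stretches of these lengths with any other gene. No source used here gives the read length or what was done with multimapping reads, so the values of these 2 genes are uncertain to that extent. An exon of Fcgr2b also overlaps the antisense gene Gm38204 over 155 bases, and the strand setting of the counting is not given.

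Promoter windows from RefSeq (GRCm38.p6), which run from 250 bases before to 50 bases after the annotated start, were found for all 6 genes. Printed are those of Fcgr1, Fcgr4 and Fcgr2b, which moved together in the BMDCs, and that of Fcgr3, which did not follow them. Capitals mark matches, on either strand, to 4 short motifs that were picked with the sequences in view: TTCNNNGAA (the GAS element bound by STAT factors), GAAA and GAAA with any 2 bases between them (an ISRE core, bound by interferon-regulated factors), GAGGAA (a core of the site of PU.1, a myeloid factor; TTCCTC on the printed strand) and GGG and TTTCC with any 2 bases between them (a kappaB element, bound by NF-kappaB).
Fcgr1 (chr3:96293920-96294219, minus strand): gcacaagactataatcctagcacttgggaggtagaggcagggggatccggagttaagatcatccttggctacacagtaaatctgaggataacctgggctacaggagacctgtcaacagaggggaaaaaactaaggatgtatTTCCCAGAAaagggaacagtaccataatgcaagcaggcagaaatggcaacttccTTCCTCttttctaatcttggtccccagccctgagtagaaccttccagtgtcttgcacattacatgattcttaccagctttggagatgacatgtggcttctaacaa
Fcgr4 (chr1:171018676-171018975, plus strand): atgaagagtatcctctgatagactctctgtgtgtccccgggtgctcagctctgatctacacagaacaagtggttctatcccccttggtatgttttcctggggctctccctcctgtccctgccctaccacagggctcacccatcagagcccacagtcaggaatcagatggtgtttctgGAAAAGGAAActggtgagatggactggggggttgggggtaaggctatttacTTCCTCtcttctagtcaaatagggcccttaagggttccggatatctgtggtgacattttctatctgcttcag
Fcgr2b (chr1:170976022-170976321, minus strand): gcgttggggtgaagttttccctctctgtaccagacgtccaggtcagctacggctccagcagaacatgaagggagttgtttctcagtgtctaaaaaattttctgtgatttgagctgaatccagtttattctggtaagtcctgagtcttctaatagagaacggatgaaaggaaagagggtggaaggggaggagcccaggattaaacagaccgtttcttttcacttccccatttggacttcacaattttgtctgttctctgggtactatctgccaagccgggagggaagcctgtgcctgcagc
Fcgr3 (chr1:171059354-171059653, minus strand): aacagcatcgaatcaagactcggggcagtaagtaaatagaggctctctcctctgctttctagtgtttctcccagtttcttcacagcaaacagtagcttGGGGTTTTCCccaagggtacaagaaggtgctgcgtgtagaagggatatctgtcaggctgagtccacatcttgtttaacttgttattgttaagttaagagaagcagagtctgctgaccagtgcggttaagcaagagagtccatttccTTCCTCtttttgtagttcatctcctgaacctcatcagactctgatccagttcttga

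The Fcgr1 window holds a GAS match, TTCCCAGAA, at bases -109 to -101 from the start and a PU.1 core at -55 to -50. The Fcgr4 window holds an ISRE core, GAAAAGGAAA, at -73 to -64 and a PU.1 core at -22 to -17. In the printed Fcgr3 window a kappaB match, GGGGTTTTCC, lies at -152 to -143 and a PU.1 core at -6 to -1. Another Fcgr3 window, from a nearby annotated start, holds the same matches at -161 to -152 and -15 to -10. Both Fcgr3 windows and the Fcgr2b window lie inside the spans that GENCODE gives these genes, and not at their outer ends. The windows of Fcgr2b, Fcer1g and Fcgrt hold none of the 4 motifs. Over 32851 promoter windows of the same length, 8.3% hold the GAS letters, 3.44% the ISRE core, 28.3% the PU.1 core and 1.63% the kappaB letters. These matches describe letters in a window, and no binding was measured.

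Total counts were 14.2 M to 19.3 M in the tumoral and 16.1 M to 19.7 M in the BMDC libraries. All 6 genes passed the filter on low counts in both tables. Pde5a, the gene that the genotype label names, had 22 and 43 counts in KO-labelled LPS, 47 and 61 in KO-labelled unstimulated, 52 and 20 in WT LPS and 55 and 37 in WT unstimulated BMDCs. It does not separate the genotype labels, so the groups are called KO-labelled throughout. Among markers of the labelled cells, Zbtb46 had 21.8 to 44.1 CPM (counts of a gene scaled to the library total) in the tumoral and 124 to 254 CPM in the BMDC libraries. The DC integrin gene Itgax went the other way, with 389 to 483 CPM in the tumoral and 81.1 to 188 CPM in the BMDC libraries, and the summed conventional DC list overlapped, at 14493 to 22498 CPM in the tumoral and 9286 to 20255 CPM in the BMDC libraries. C1qa, a complement gene of macrophages, had 839 to 2647 CPM in the tumoral and 3.35 to 53.2 CPM in the BMDC libraries. All 12 genes of a monocyte and macrophage list had counts in every group. Their summed level was 15513 and 17114 CPM in late tumoral, 15524 and 8506 CPM in early tumoral, 909 and 1744 CPM in KO-labelled LPS, 2583 and 2298 CPM in KO-labelled unstimulated, 2250.3 and 1798 CPM in WT LPS and 2464 and 2402 CPM in WT unstimulated libraries. The part of macrophages in the receptor levels was not tested, and in bulk libraries fewer cells of a type and less RNA per cell cannot be told apart.

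**Figure D1:**
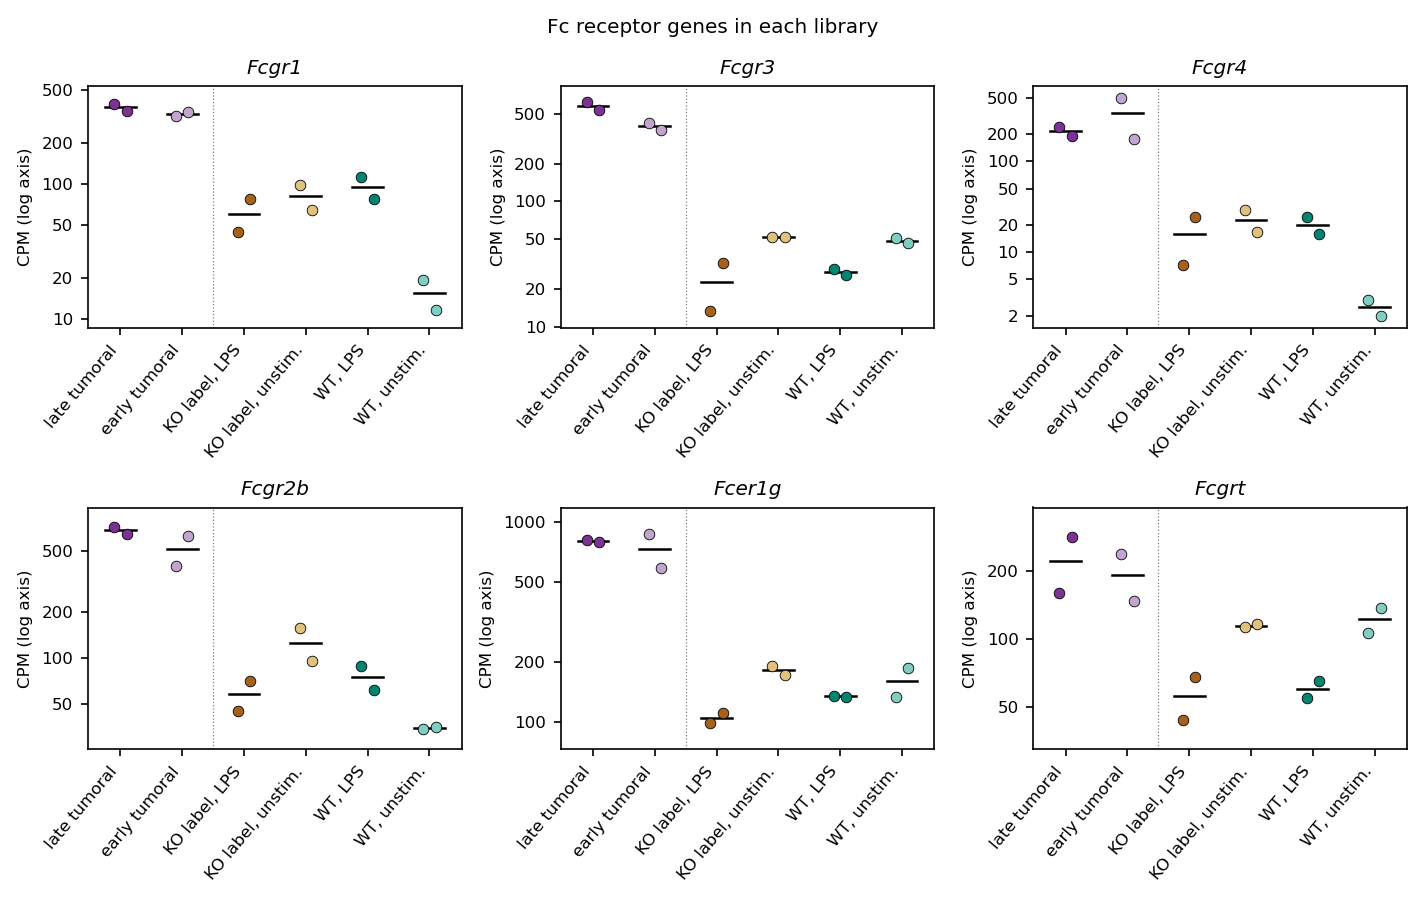
Level of each Fc receptor gene in the 12 libraries, in CPM of the library total on a log axis that differs between panels, with replicates 1 and 2 from left to right in each group and a bar at the group mean. For all 6 genes the tumoral libraries lie above the BMDC libraries, narrowly for Fcgrt, a separation that was not counted over all genes. Fcgr1, Fcgr4 and Fcgr2b have their lowest libraries in unstimulated WT BMDCs.

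All 6 receptor genes had more CPM in each of the 4 tumoral libraries than in any of the 8 BMDC libraries. For Fcgrt the margin was thin, with 147 CPM in early tumoral replicate 2 against 138 CPM in WT unstimulated replicate 2. How many of all genes separate in this way was not counted, so the separation is not read as particular to the 6. The tables of the 2 experiments were fitted separately, so this is a comparison of levels with no test. To compare genes with each other, CPM was divided by the summed exon length of each gene. On that scale Fcer1g, the shared signalling chain, was the highest of the 6 genes in every group, with 927 ± 16.9 CPM per kb in late tumoral, 841 ± 234 in early tumoral, 120.2 ± 10.3 in KO-labelled LPS, 208 ± 15.7 in KO-labelled unstimulated, 154 ± 1.47 in WT LPS and 184 ± 43.1 CPM per kb in WT unstimulated cells (SD, n = 2 each). In late tumoral DCs the next were Fcgr3 with 332 ± 34.8, Fcgr4 with 170.5 ± 26.6 and Fcgr1 with 143 ± 13.2 CPM per kb, and Fcgr2b had 118 ± 7.75 CPM per kb. The length used for Fcgr2b, 5790 bases, takes in the exons of all its annotated transcripts. Its protein-coding transcripts hold 3708 different 50-base stretches, whereas those of Fcgr1 hold 2540 for a length of 2589 bases. The level of Fcgr2b per kb may therefore be too low, and its rank below Fcgr4 and Fcgr1 is uncertain. In unstimulated WT BMDCs the second highest level was that of Fcgrt, 58.2 ± 10.4 CPM per kb, followed by Fcgr3 with 28.0 ± 2.03. Fcgr2b, Fcgr1 and Fcgr4 were lowest there, with 5.99 ± 0.121, 5.96 ± 2.09 and 1.97 ± 0.550 CPM per kb.

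Of the activating receptors, Fcgr1 had 396 and 347 CPM in late and 318 and 341 CPM in early tumoral DCs. In BMDCs it had 44.0 and 76.8 CPM in KO-labelled LPS, 98.4 and 64.2 in KO-labelled unstimulated, 112 and 78.0 in WT LPS and 19.3 and 11.6 CPM in WT unstimulated libraries. The unstimulated WT pair stands below the other 6 BMDC libraries, where WT LPS, KO-labelled unstimulated and KO-labelled LPS follow each other by mean and each group overlaps the next.

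Fcgr4 had 238 and 190.5 CPM in late and 499.9 and 177 CPM in early tumoral DCs, so that 1 early library is far above the other 3. In BMDCs it had 7.25 and 24.5 CPM in KO-labelled LPS, 28.8 and 16.6 in KO-labelled unstimulated, 24.1 and 15.7 in WT LPS and 2.96 and 1.98 CPM in WT unstimulated libraries, where the values rest on 50 and 32 counts. The unstimulated WT pair is again the lowest, the other 3 groups overlap, and replicate 1 of KO-labelled LPS is the lowest of those 6 libraries.

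Fcgr3 had 619 and 534 CPM in late and 425 and 375 CPM in early tumoral DCs, with no overlap. In BMDCs it had 13.2 and 32.2 CPM in KO-labelled LPS, 52.3 and 51.8 in KO-labelled unstimulated, 29.0 and 25.6 in WT LPS and 51.1 and 46.1 CPM in WT unstimulated libraries. Here both LPS groups lie below both unstimulated groups. The 2 LPS groups overlap, and the means of the 2 unstimulated groups differ by less than the SD of the WT pair.

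The inhibitory receptor gene Fcgr2b had 718 and 654 CPM in late and 403 and 631 CPM in early tumoral DCs. In BMDCs it had 45.2 and 71.1 CPM in KO-labelled LPS, 158 and 95.1 in KO-labelled unstimulated, 88.9 and 61.6 in WT LPS and 34.2 and 35.2 CPM in WT unstimulated libraries. Its highest BMDC pair is the KO-labelled unstimulated one and its lowest the WT unstimulated one, with the 2 LPS groups overlapping between them.

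Fcer1g, the shared chain, had 98.7 and 111 CPM in KO-labelled LPS, 191 and 172 in KO-labelled unstimulated, 136 and 134 in WT LPS and 134 and 187 CPM in WT unstimulated BMDC libraries. The KO-labelled LPS pair is the lowest, and the WT unstimulated pair encloses or overlaps the other 2 groups, of which KO-labelled unstimulated lies above WT LPS. It had 821 and 799.8 CPM in late and 879.7 and 590.4 CPM in early tumoral DCs, which overlap. Fcgrt had 43.7 and 68.1 CPM in KO-labelled LPS, 113 and 117 in KO-labelled unstimulated, 54.8 and 65.2 in WT LPS and 107 and 138 CPM in WT unstimulated BMDCs. As for Fcgr3, its LPS groups overlap each other and lie below both unstimulated groups. In the tumors Fcgrt had 159.7 and 285 CPM in late and 240.0 and 147 CPM in early DCs, which overlap.

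In WT BMDCs, LPS was accompanied by higher counts of Fcgr1, Fcgr4 and Fcgr2b and lower counts of Fcgrt. Ratios of mean CPM, here and below, use library totals without the further scaling (TMM) of the edgeR fit, so they can differ from its fold changes. Mean CPM in LPS libraries was 6.15 times that of unstimulated libraries for Fcgr1, 8.04 times for Fcgr4, 2.17 times for Fcgr2b and 0.490 times for Fcgrt. Both an activating pair and the inhibitory receptor therefore rose, while the activating Fcgr3 (29.0 and 25.6 against 51.1 and 46.1 CPM) and the shared chain Fcer1g did not pass the test. With edgeR's quasi-likelihood test and Benjamini-Hochberg adjustment, 4 of the 6 genes were called at an adjusted p under 0.05, where 37.6% of the 13072 genes tested were. By direction 3 of the 6 were higher, against 20.0% of all genes, and 1 was lower, against 17.6%. The median log2 fold change was 0.64 over the 6 genes and -0.024 over all genes tested.

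The log2 fold change of Fcgr1 in LPS against unstimulated WT BMDCs was 2.82 (SE 0.41, edgeR adjusted p = 0.00284), and that of Fcgr4 was 3.20 (SE 0.67, adjusted p = 0.0105). Fcgr2b changed by 1.32 (SE 0.33, edgeR adjusted p = 0.0204) and Fcgrt by -0.82 (SE 0.21, adjusted p = 0.0174) on the log2 scale. For Fcgr3 the estimate was -0.63 with a 95% interval of -1.47 to 0.21 (edgeR adjusted p = 0.204), and for Fcer1g it was -0.046 with an interval of -0.39 to 0.30 (adjusted p = 0.833). In a fit of the 2 WT groups alone Fcgr3 was called, at the same log2 fold change of -0.63 (edgeR adjusted p = 0.0120). Fcgr1 was called in all 16 settings tried, at 2.48 to 3.26. The edgeR adjusted p without a filter on low counts was 0.0649 for Fcgr4 and 0.101 for Fcgr2b. Without WT unstimulated replicate 2 it was 0.0829 for Fcgr4, 0.106 for Fcgr2b and 0.103 for Fcgrt, without WT LPS replicate 1 it was 0.0975 for Fcgr2b and 0.107 for Fcgrt, and without WT unstimulated replicate 1 it was 0.0886 for Fcgr2b. When the counts of Fcgr2b and Fcgr3 were summed, because they share sequence, the sum had a log2 fold change of 0.50 (edgeR adjusted p = 0.244).

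**Figure D2:**
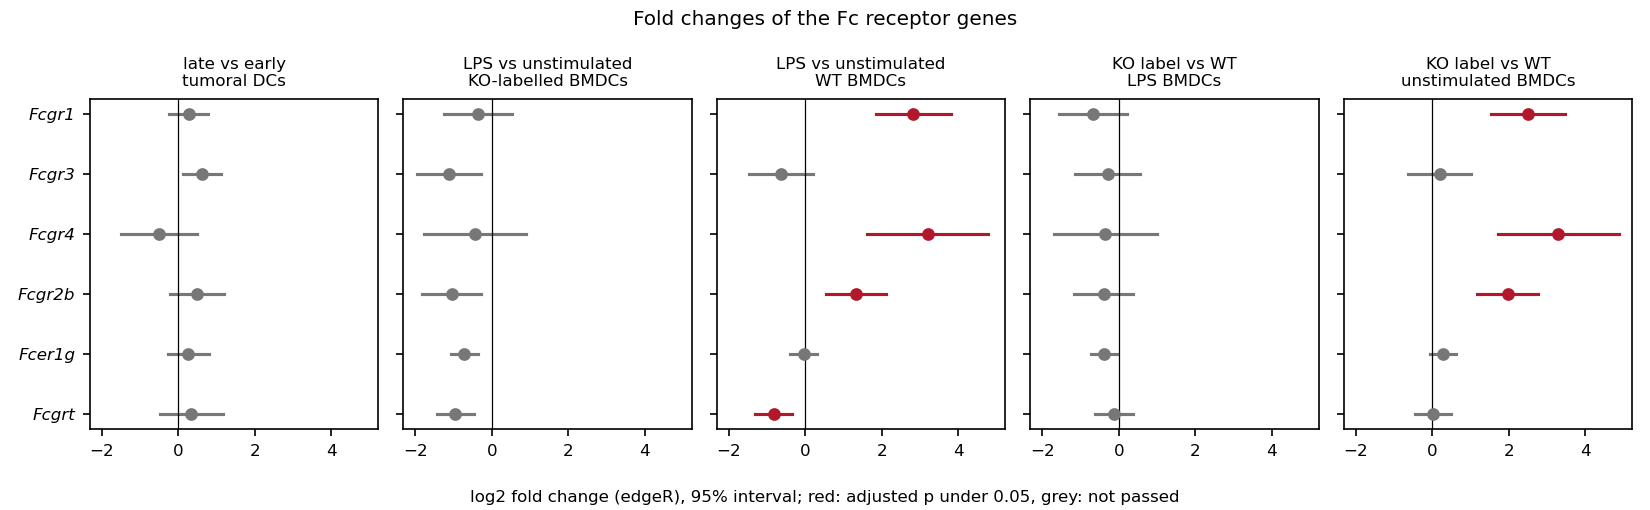
Log2 fold change of each Fc receptor gene in 5 comparisons (edgeR), with points at the estimate and lines over the 95% interval, in red where the adjusted p was under 0.05 and in grey where it was not. Fcgr1, Fcgr4 and Fcgr2b are red and right of 0 in WT BMDCs with LPS and in unstimulated KO-labelled BMDCs, and Fcgrt is red and left of 0 in WT BMDCs with LPS.

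Unstimulated KO-labelled BMDCs had more Fcgr1, Fcgr4 and Fcgr2b than unstimulated WT BMDCs, at 5.27, 9.18 and 3.65 times the mean CPM. No difference in Fcgr3, Fcer1g or Fcgrt passed the test. With edgeR 3 of the 6 genes were called, 3 higher and 0 lower, where 18.0% of all genes tested were called, 12.0% higher and 5.98% lower. The median log2 fold change of the 6 genes was 1.13 and that of all genes was -0.011. This comparison and that of LPS in WT BMDCs share the 2 unstimulated WT libraries, in which these 3 genes have their lowest values, so their values are not independent of each other.

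The log2 fold change in KO-labelled against WT unstimulated BMDCs was 2.50 for Fcgr1 (SE 0.41, edgeR adjusted p = 0.00943), 3.30 for Fcgr4 (SE 0.67, adjusted p = 0.0191) and 1.98 for Fcgr2b (SE 0.33, adjusted p = 0.0106). For the others it was 0.20 for Fcgr3 (95% interval -0.62 to 1.02, edgeR adjusted p = 0.721), 0.29 for Fcer1g (-0.055 to 0.63, adjusted p = 0.212) and 0.013 for Fcgrt (-0.46 to 0.49, adjusted p = 0.972). The Fcgrt estimate turned to -0.019 with upper-quartile scaling and to -0.093 by library size alone. None of the 3 calls was made without a filter on low counts, where the edgeR adjusted p was 0.0528 for Fcgr1, 0.0910 for Fcgr4 and 0.0545 for Fcgr2b. The 3 calls were also lost without WT unstimulated replicate 2 (0.0716, 0.130 and 0.0803 in the same order) and without KO-labelled unstimulated replicate 1 (0.0947, 0.154 and 0.0570). Without WT unstimulated replicate 1, Fcgr4 (edgeR adjusted p = 0.0700) and Fcgr2b (0.0521) were not called. The direction was higher in all of these fits, at 2.12 to 2.94 for Fcgr1, 2.81 to 3.66 for Fcgr4 and 1.21 to 2.31 for Fcgr2b over 16 settings, of which the lowest for Fcgr2b is its sum with Fcgr3.

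In KO-labelled BMDCs the mean CPM of all 6 genes was lower with LPS than without, at 0.743 times for Fcgr1, 0.436 times for Fcgr3, 0.699 times for Fcgr4, 0.460 times for Fcgr2b, 0.579 times for Fcer1g and 0.487 times for Fcgrt. None of these differences passed edgeR's test after adjustment: 0 of 6 genes and 0% of all genes tested were called. At an unadjusted p under 0.05 there were 4 of the 6 genes and 2800 genes in all. DESeq2 called 4 of the 6 (Fcgr3, Fcgr2b, Fcer1g and Fcgrt, all lower) among 793 genes, and limma-voom called 0 of the 6 and 0 genes. The log2 fold changes were -0.35 for Fcgr1 (edgeR adjusted p = 0.621), -1.12 for Fcgr3 (0.150), -0.44 for Fcgr4 (0.685), -1.05 for Fcgr2b (0.142), -0.71 for Fcer1g (0.0781) and -0.96 for Fcgrt (0.0870), with a median of -0.84 against -0.016 over all genes. Replicate 1 of KO-labelled LPS is the lowest library of all for Fcgr3 and Fcgrt. It also had the lowest monocyte and macrophage sum, 909 CPM, and a link of this sum to the receptor values was not tested. Without replicate 2 of that group, which leaves this library alone with its spread taken from the other groups, Fcgr3 (-1.91, edgeR adjusted p = 0.0136) and Fcgrt (-1.33, adjusted p = 0.0453) were called.

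With LPS in both genotype labels, no difference between KO-labelled and WT BMDCs passed the test in any of the 6 genes. EdgeR called 0 of 6 and 0% of all genes tested. At an unadjusted p under 0.05 there were 1 of the 6 (Fcer1g, log2 fold change -0.38, edgeR adjusted p = 0.456) and 1330 genes in all. DESeq2 called 0 of the 6 and 150 genes, and limma-voom 0 of the 6. Estimates ran from -0.67 for Fcgr1 (95% interval -1.57 to 0.22) to -0.12 for Fcgrt (-0.61 to 0.36), and the widest interval was that of Fcgr4, -1.69 to 0.99 around -0.35. Without KO-labelled LPS replicate 2, Fcgr3 was called, at a log2 fold change of -1.08 (edgeR adjusted p = 0.0439).

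The LPS effect itself differed between the genotype labels for Fcgr1 and Fcgr2b. The interaction term, the log2 LPS effect in KO-labelled minus that in WT BMDCs, was -3.17 for Fcgr1 (SE 0.55, edgeR adjusted p = 0.0297) and -2.37 for Fcgr2b (SE 0.46, adjusted p = 0.0395). Fcgr4 had the largest estimate of the 6, -3.65, but did not pass (SE 0.87, edgeR adjusted p = 0.0698). Values for Fcer1g (-0.67, edgeR adjusted p = 0.116), Fcgr3 (-0.49, 0.624) and Fcgrt (-0.14, 0.836) did not pass either. Calls were 2 of 6, both lower, against 4.48% of all genes called, 3.91% lower and 0.566% higher, and the median was -1.52 over the 6 and -0.0073 over all genes.

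The interaction was sensitive to single libraries. For Fcgr1 the edgeR adjusted p was 0.108 without WT unstimulated replicate 2, 0.148 without KO-labelled unstimulated replicate 1, 0.0918 without WT LPS replicate 1 and 0.0970 without KO-labelled LPS replicate 1. For Fcgr2b it was 0.143, 0.113, 0.1201 and 0.122 without the same libraries, 0.0907 without WT unstimulated replicate 1 and 0.0565 without WT LPS replicate 2. Without KO-labelled LPS replicate 2 all but Fcer1g and Fcgrt were called, with Fcgr4 at -4.79 (edgeR adjusted p = 0.0198) and Fcgr3 at -1.28 (0.0241), and without WT unstimulated replicate 2 Fcer1g was called at -0.91 (0.0473). With the replicate number as a block the edgeR adjusted p was 0.0545 for Fcgr1 and 0.0757 for Fcgr2b, and without a filter on low counts it was 0.116 and 0.141.

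In tumors, late DCs had 1.44 times the mean CPM of early DCs for Fcgr3, 1.33 times for Fcgr2b, 1.13 times for Fcgr1 and 0.633 times for Fcgr4. None of the 6 differences passed the test (0 of 6, against 0.0230% of the 13040 genes tested). At an unadjusted p under 0.05 there were 1 of the 6, Fcgr3, and 1438 genes in all. DESeq2 called 0 of the 6 among 311 genes and limma-voom 0 of the 6 among 0. The log2 fold change of Fcgr3 was 0.63 (SE 0.22, 95% interval 0.13 to 1.13, edgeR adjusted p = 0.362). It was 0.48 for Fcgr2b (edgeR adjusted p = 0.591), 0.34 for Fcgrt (0.743), 0.27 for Fcgr1 (0.692), 0.26 for Fcer1g (0.705) and -0.52 for Fcgr4 (0.685), with a median of 0.30 against 0.012 over all genes.

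The tumoral estimates of Fcgr4 and Fcgr2b moved most with the early libraries, which differ from each other. Replicate 1 of early tumoral had more Fcgr4, Fcer1g and Fcgrt and less Fcgr2b than replicate 2, together with 2438 against 839 CPM of C1qa and a monocyte and macrophage sum of 15524 against 8506 CPM. The part of these cells in the receptor values was not tested. Without early replicate 2, Fcgr4 was lower in late DCs (log2 fold change -1.02, edgeR adjusted p = 0.00774) and Fcgr2b higher (0.97, adjusted p = 0.0375). Without early replicate 1, the Fcgr4 estimate was 0.28 (edgeR adjusted p = 0.652) and that of Fcgr2b 0.13 (0.862). Fcgrt, whose late libraries are further apart than its early ones, was at -0.20 without late replicate 2 (edgeR adjusted p = 1.0) and at 0.71 without late replicate 1 (0.485). The Fcgr3 estimate stayed between 0.55 and 0.69 whichever library was left out.

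The balance of activating to inhibitory receptors was described per library as the log2 ratio of the summed counts of Fcgr1, Fcgr3 and Fcgr4 to those of Fcgr2b. This is a ratio of counts that also depends on the lengths of the genes, so only its differences between libraries are read. It was 0.51 and 0.91 in KO-labelled LPS, 0.19 and 0.48 in KO-labelled unstimulated, 0.89 and 0.95 in WT LPS and 1.10 and 0.76 in WT unstimulated BMDCs. The KO-labelled unstimulated pair is the lowest, and the other 3 groups overlap. In tumors it was 0.80 and 0.71 in late and 1.62 and 0.50 in early DCs, where the early pair encloses the late one. Exact permutation tests, two-sided and within strata in the BMDCs, gave a difference of 0.18 for LPS against unstimulated (p = 0.333), -0.41 for the KO label against WT (p = 0.111) and -0.31 for late against early tumoral DCs (p = 1.0). The 4 libraries against 4 allow no exact permutation p below 0.0556 and the 2 tumoral pairs none below 0.333, so these designs cannot reach 0.05.

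The single receptors differed from their sum. In WT BMDCs the log2 ratio of Fcgr3 to Fcgr2b was -1.62 and -1.26 with LPS against 0.58 and 0.39 without, whereas that of Fcgr1 to Fcgr2b was 0.33 and 0.34 with LPS against -0.83 and -1.60 without. That of Fcgr4 to Fcgr2b was -1.88 and -1.97 with LPS against -3.53 and -4.15 without. Per kb of exon, the highest of the 3 activating receptors was Fcgr1 in WT cells with LPS (36.7 ± 9.25 CPM per kb) and Fcgr3 in unstimulated WT cells (28.0 ± 2.03 CPM per kb, SD, n = 2 each). Without LPS, KO-labelled cells had Fcgr3 to Fcgr2b ratios of -1.59 and -0.88, below both WT values. Leaving Fcgr3 out of the sum gave a difference of 1.11 for LPS (exact permutation p = 0.0556, the smallest possible) and turned the KO label's to 0.23 (exact permutation p = 0.667).

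**Figure D3:**
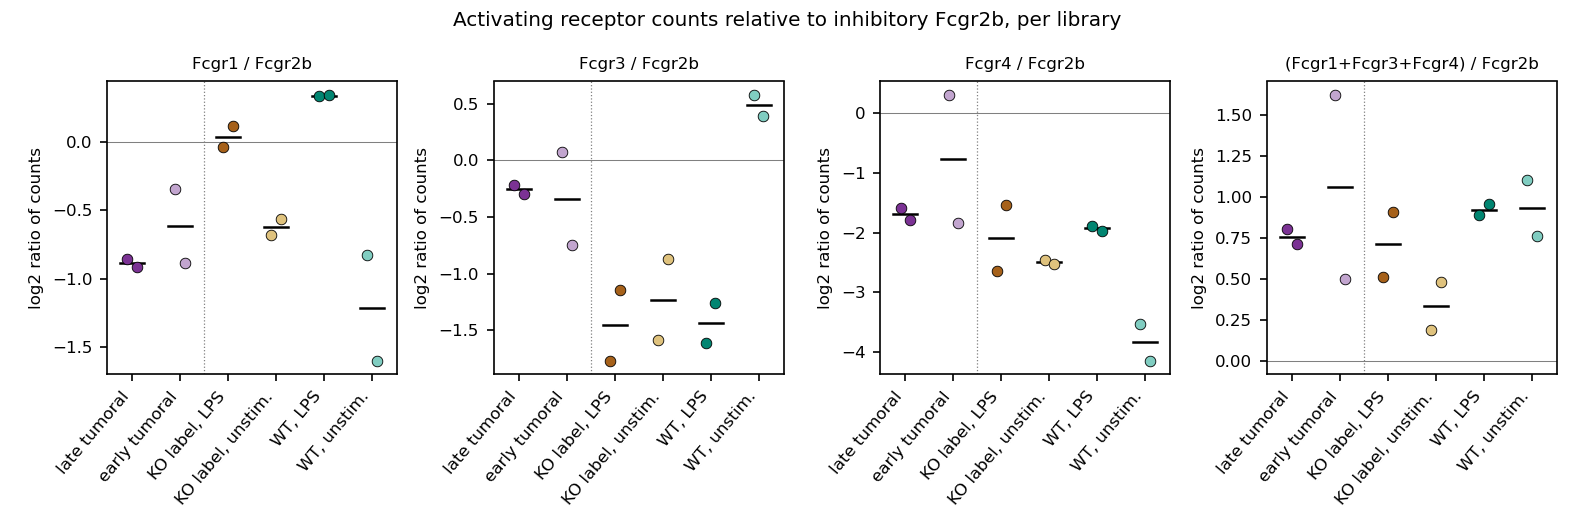
Log2 ratio of the counts of single activating Fc receptor genes, and of their sum, to those of the inhibitory Fcgr2b in each library, with a bar at the group mean and a line at equal counts. Fcgr3 to Fcgr2b lies above 0 among the BMDCs in the 2 unstimulated WT libraries, at 0.58 and 0.39, and Fcgr1 to Fcgr2b is highest in the 2 WT LPS libraries, at 0.33 and 0.34.

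Downstream of the receptors, 25 genes of activating ITAM signalling were tested. With LPS in WT BMDCs 8 were higher and 10 lower, with a median log2 fold change of -0.12, where 20.0% of all genes were higher and 17.6% lower. The Src-family kinase gene Fgr (1.39, edgeR adjusted p = 0.000378) and Src itself (0.93, 0.0011) rose, while the adaptor Lat2 (-1.46, 0.00602) and the kinase gene Pik3cg (-0.82, 0.00648) fell. Syk, which binds the phosphorylated gamma chain, was at 0.23 (edgeR adjusted p = 0.173). Among 10 genes of inhibitory ITIM signalling 3 were higher and 4 lower. Inpp5d, the SHIP1 phosphatase that acts below FcγRIIB, fell (-0.94, edgeR adjusted p = 0.00243), as did the adaptor Dok3 (-1.23, 0.000414), while the adaptor Dok1 rose (0.70, 0.00191). Fcgr2b and Inpp5d thus moved in opposite directions.

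In unstimulated KO-labelled against WT BMDCs the count of activating genes called was close to the share over all genes, 12.0% higher and 5.98% lower: 3 of the 25 were higher and 2 lower, among them Fgr (1.14, edgeR adjusted p = 0.00177), Fyn (0.89, 0.011), Dock2 (-0.46, 0.0204) and Lat2 (-0.97, 0.0459). Syk was at 0.21 (edgeR adjusted p = 0.260). Of the 10 inhibitory genes 3 were higher and 1, Inpp5d (-0.61, edgeR adjusted p = 0.0295), was lower. In the interaction Fgr was lower (-1.26, edgeR adjusted p = 0.0134).

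Of the 4 other genes in the list of signalling adaptors, Hcst and Cd3g, like Fcer1g, did not pass with LPS in WT BMDCs (-0.50, edgeR adjusted p = 0.335, and -1.26, 0.0758). Cd247, the zeta chain of T cell receptors, rose (2.63, edgeR adjusted p = 0.000338) and Tyrobp (DAP12) fell (-0.93, 0.000952). No difference between these genes and Fcer1g was tested. In the KO-labelled unstimulated cells Cd247 was at 2.04 (edgeR adjusted p = 0.00164) and Tyrobp at -0.55 (0.0179). Cd247 reached 10.2 and 8.48 CPM in WT LPS against 1.95 and 1.49 CPM in WT unstimulated libraries, a low level. A list of other receptors holds several that pair with the gamma chain, but also Pirb and Clec4a2, which carry inhibitory motifs of their own. Of its 10 genes tested, 5 were higher and 1 lower with LPS in WT (20.0% and 17.6% of all genes), and 3 were higher in KO-labelled unstimulated cells (12.0% of all genes). Pirb was among those higher in both. Clec4e (Mincle, a receptor of fungal and mycobacterial lipids) had 2.14 with LPS in WT (edgeR adjusted p = 0.000525), 1.97 for the KO label without stimulation (0.00169) and -2.62 in the interaction (0.00864). Il3ra, the alpha chain of the interleukin-3 receptor, had 0.81 (edgeR adjusted p = 0.000769), 0.56 (0.00785) and -0.73 (0.0284).

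Around FcRn, the partner chain B2m rose while Fcgrt fell in WT BMDCs with LPS. B2m averaged 4395 ± 64.3 CPM in LPS and 2566 ± 127 CPM in unstimulated WT libraries (SD, n = 2 each), a log2 fold change of 0.98 (edgeR adjusted p = 0.00167). In KO-labelled unstimulated cells it was at 0.54 (edgeR adjusted p = 0.0372). Of 8 tested genes of the FcRn partner and endosomal recycling list, 3 were higher with LPS in WT (20.0% of all genes) and 3 for the KO label (12.0% of all genes). The recycling gene Ehd1 was at 1.36 (edgeR adjusted p = 0.000368) with LPS in WT and 0.98 (0.00286) for the KO label. Trim21, a cytosolic Fc receptor that binds antibody that has entered the cell, rose with LPS in WT (1.07, edgeR adjusted p = 0.00441) and was at 0.32 for the KO label (0.284). With LPS in WT it was the 1 gene called among 5 tested Fc receptor genes outside the 6, a count at the share of all genes that were higher, 20.0%. Of 6 phagosome oxidase genes, Ncf1 rose with LPS in WT (1.03, edgeR adjusted p = 0.000566) and 3 others fell, among them Rac2 (-0.39, 0.0221). Over all genes 20.0% were higher and 17.6% lower there.

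The comparisons in which Fcgr1, Fcgr4 and Fcgr2b rose were also those in which interferon response genes rose. All 15 genes of that list were higher with LPS in WT BMDCs (20.0% of all genes), with a median log2 fold change of 3.31. In KO-labelled unstimulated BMDCs all 15 were also higher (12.0% of all genes), with a median of 2.51. Irf7, a transcription factor that interferon induces, had 595 and 497 CPM in WT LPS and 384 and 253 CPM in KO-labelled unstimulated libraries, against 21.2 and 32.2 CPM in WT unstimulated libraries. In the interaction 12 of the 15 were lower (3.91% of all genes), with Irf7 at -4.03 (edgeR adjusted p = 0.00652). The summed interferon list had 4913 and 5617 CPM in KO-labelled LPS, 4613 and 3112 in KO-labelled unstimulated, 6725 and 5283 in WT LPS and 1156 and 1102 CPM in WT unstimulated libraries. In the tumors, where Fcgr1 and Fcgr4 were far higher, it was above that of unstimulated WT BMDCs and below that of the other BMDC groups. There it had 2289 and 1604 CPM in late and 2576 and 2779 CPM in early DCs. Its part in the receptor values was not tested.

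Of 12 monocyte and macrophage genes, 4 were higher and 3 lower with LPS in WT BMDCs (20.0% and 17.6% of all genes), with C1qa at 2.84 (edgeR adjusted p = 0.0135) and Ccr2, a chemokine receptor of monocytes, at -2.58 (0.00676). In KO-labelled unstimulated BMDCs the count was close to the share over all genes (12.0% higher and 5.98% lower): 1 of 12, C1qa, was higher (3.24, edgeR adjusted p = 0.0172) and 1, Mrc1, lower (-1.11, 0.0419). C1qa had 29.4 and 30.4 CPM in WT LPS and 53.2 and 31.3 CPM in KO-labelled unstimulated libraries, against 6.22 and 3.35 CPM in WT unstimulated libraries, and 8.74 and 30.1 CPM in KO-labelled LPS libraries. The library with 8.74 CPM is the one with the least Fcgr4 of the KO-labelled LPS pair. The part of macrophages in the Fcgr4 values was not tested.

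**Figure D4:**
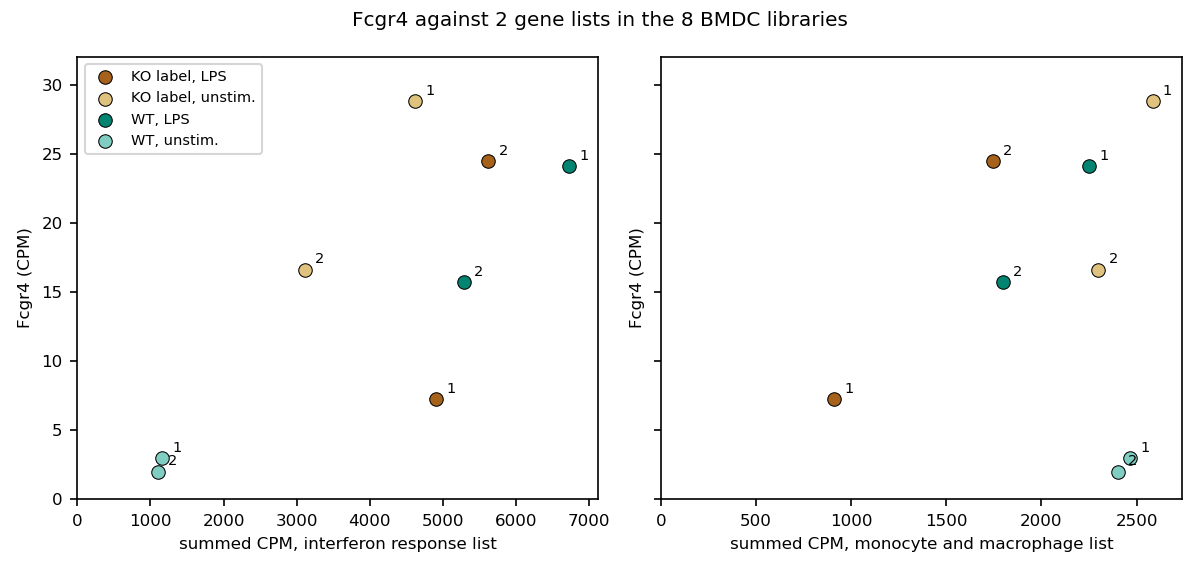
Fcgr4 (CPM) in the 8 BMDC libraries against the summed CPM of 15 interferon response genes (left) and of 12 monocyte and macrophage genes (right), with the replicate number beside each point. The 2 unstimulated WT libraries are lowest on the interferon axis, at 1156 and 1102 CPM, but among the highest on the macrophage axis, at 2464 and 2402 CPM, and replicate 1 of KO-labelled LPS is lowest on the macrophage axis, at 909 CPM.

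For each of the 6 genes the 3 genes of most similar pattern over the 8 BMDC libraries were taken by Pearson's r of log2 CPM among 7280 genes or 1 more. The points are 4 groups of 2 libraries that share the depth of each library, and r is given as a description. Fcgr1 was most like Mmp14 (r = 0.997), Flot2 (0.990) and Acp5 (0.986). For Fcgr4 they were Med15 (0.991), Zfp276 (0.988) and Hif1a (0.986). For Fcgr2b they were Grina (0.990), Pltp (0.973) and Tnip2 (0.970). Fcgr3 was most like Gng12 (0.992), Def8 (0.978) and Rab3il1 (0.960). The nearest patterns to Fcer1g were those of Kat8 (0.969), Fth1 (0.946) and Bpnt1 (0.939), and those to Fcgrt were Coro7 (0.974), Ampd2 (0.968) and Lamtor2 (0.965). No gene was listed for more than 1 of the 6, but only 3 were taken for each. Fcgr4, with an average log2 CPM of 3.97, lay below the limit of 4 and could not be listed for another gene. Between the 6 genes themselves r was 0.982 for Fcgr1 and Fcgr4, 0.913 for Fcgr4 and Fcgr2b and 0.905 for Fcgr3 and Fcgrt. The lowest r was -0.431, for Fcgr1 and Fcgrt.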

How the data were processed

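Total RNA was sequenced from TruSeq libraries, per the labels' protocols, whose extraction text speaks of another tissue. The authors deposited whole-number raw counts by gene symbol, in 1 table for tumoral DCs and 1 for BMDCs. Per the submitters' processing notes, fastp 0.12.4, HISAT2 2.2.1, featureCounts 2.0.1 and mm10 were used. Annotation release, strand setting and handling of multimapping reads were not given in the sources used here. Columns were mapped by name, and 0 stayed unmapped.

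Each table was fitted whole in R 4.3.3 with edgeR 4.0.16: filterByExpr (minimum count 10), TMM, and robust glmQLFit with glmQLFTest on group means, with p-values adjusted by Benjamini-Hochberg over the whole table and 0.05 as the threshold of a call. SE is the log2 fold change over the root of F. EdgeR's biological coefficient of variation came to 0.278 (tumoral) and 0.138 (BMDC). CPM uses the total of each table column, and CPM per kb the union exon length in GENCODE vM21. The 6 genes and 19 further lists were chosen with earlier results of these data known. Named were the 6 genes, up to 2 called genes per list, direction and comparison by adjusted p, Syk, Inpp5d, Tyrobp, B2m, Trim21 and Pde5a, and 3 genes of most similar log2 CPM (prior count 2, average log2 CPM of at least 4). Some genes that this rule selects are not reported here. Levels of C1qa and Zbtb46 were picked after their values were seen. Alternatives were other scalings, filters (none, minimum count 50), DESeq2 1.42.0, limma-voom (limma 3.58.1), a replicate block, summed Fcgr2b and Fcgr3, fits of 2 groups and leaving out each library, where a lone library is assumed to vary like the others. The steps were tested on simulated data.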

Additional observations from a re-analysis of the deposited data

Results flagged for a closer look

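The effect of LPS on Fcgr1 differed between KO-labelled and WT BMDCs, by a test of the difference itself. The interaction was -3.17 on the log2 scale (edgeR adjusted p = 0.0297), with Fcgr1 at 44.0 and 76.8 CPM in KO-labelled LPS and 98.4 and 64.2 CPM in KO-labelled unstimulated libraries, and at 112 and 78.0 CPM in WT LPS and 19.3 and 11.6 CPM in WT unstimulated libraries. The effect on Fcgr2b differed in the same direction, by -2.37 (edgeR adjusted p = 0.0395), with 45.2 and 71.1 CPM in KO-labelled LPS and 158 and 95.1 CPM in KO-labelled unstimulated libraries, and 88.9 and 61.6 CPM in WT LPS and 34.2 and 35.2 CPM in WT unstimulated libraries. These calls were not stable: Fcgr1 was called in 13 and Fcgr2b in 10 of 19 settings, and neither with the replicate number as a block (edgeR adjusted p = 0.0545 for Fcgr1 and 0.0757 for Fcgr2b) or without a filter on low counts (0.116 and 0.141). For both genes unstimulated KO-labelled cells were high and unstimulated WT cells low, and with LPS no difference between the genotype labels passed the test. Pde5a counts do not separate the genotype labels, so what the label stands for in these cells cannot be told from the data.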

How the results depend on the processing

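With 2 libraries per group, calls moved with single choices, among the 6 genes and over all genes. The counts in this paragraph are of the 6 genes alone. They are not set against all genes called in the same setting, whose number moved over the ranges given in the next paragraph. They therefore describe how stable the calls were, and are not read as a result about the 6 genes. The number of the 6 genes called with LPS in WT BMDCs was 4, and 2 without a filter on low counts. For LPS in KO-labelled BMDCs it was 0, but 1 without a filter, 4 with DESeq2 and 1 with a replicate block (Fcgrt, -0.99, edgeR adjusted p = 0.0297). For the KO label without stimulation it was 3, and 0 without a filter. For the interaction it was 2, but 1 without a filter (Fcer1g), 0 with the replicate block and 1 with Fcgr2b and Fcgr3 summed. Leaving out 1 library at a time gave 0 to 2 calls for late against early DCs, 1 to 4 for LPS in WT, 0 to 2 for LPS in KO-labelled, 0 to 3 for the KO label without stimulation, 0 to 1 with LPS and 0 to 4 for the interaction. No label says that a replicate number marks a shared source, and the deviations of same-numbered libraries correlated at -0.200 to 0.275, above 0.1 in 3 of the 6 BMDC pairs of groups, so whether the numbers pair the libraries is not known. Because KO-labelled LPS correlated below -0.1 with both WT groups, its numbers were crossed after seeing the data, which gave 2 calls for LPS in KO-labelled BMDCs and 1 for the KO label with LPS.

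Signs turned in few other settings. Summed with Fcgr2b, Fcgr3 had 0.50 with LPS in WT. Fcgrt for the KO label without stimulation had -0.019 with upper-quartile scaling and -0.093 by library size alone. The activating to inhibitory ratio for the KO label was 0.23 without Fcgr3. With 1 library left out, log2 fold changes ran from -1.02 to 0.28 for Fcgr4 and -0.20 to 0.71 for Fcgrt in late against early DCs, -0.25 to 0.19 for Fcer1g with LPS in WT, -0.82 to 0.019 for Fcgr1 and -1.59 to 0.19 for Fcgr4 with LPS in KO-labelled cells and -0.14 to 0.18 for Fcgrt under the KO label without stimulation. Under the KO label with LPS they ran from -1.08 to 0.22 for Fcgr3, -1.49 to 0.28 for Fcgr4 and -0.49 to 0.17 for Fcgrt, and in the interaction from -1.28 to 0.020 for Fcgr3 and -0.51 to 0.16 for Fcgrt. The ratio for late against early DCs ran from -0.87 to 0.26. Scaling by library size alone moved the median of all genes by -0.20 for LPS in WT, where 1689 genes were then higher and 3728 lower against 2609 and 2301, and by -0.10 for the KO label without stimulation, with 1282 higher and 1301 lower against 1575 and 782. It left the calls of the 6 genes in both as they were. Over all settings 2676 to 5582 genes were called for LPS in WT, 593 to 3438 for the KO label without stimulation, 58 to 1598 for the interaction, 0 to 984 for LPS in KO-labelled cells, 0 to 150 for the KO label with LPS and 0 to 1063 for late against early DCs. The cause of these moves was not tested. Fcgr4 in unstimulated WT BMDCs, at 50 and 32 counts, is the thinnest value.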

Other observations

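DC maturation genes moved in the comparisons in which Fcgr1, Fcgr4 and Fcgr2b rose. Of 8 genes of mature migratory DCs, 7 were higher with LPS in WT BMDCs (20.0% of all genes), and 5 were higher in KO-labelled against WT unstimulated BMDCs (12.0% of all genes). Cacnb3 was at 1.68 (edgeR adjusted p = 0.000852) and at 1.36 (0.00468) on the log2 scale. The 8 cDC1 genes moved both ways. With LPS in WT BMDCs 6 were lower and 2 higher, and for the KO label without stimulation 4 were lower and 1 higher, where 17.6% and 5.98% of all genes were lower. Lower in both was Clec9a, a receptor for dead cells, at -2.21 (edgeR adjusted p = 0.000396) and -1.78 (0.00181), and higher in both was the transcription factor gene Irf8, at 0.66 (edgeR adjusted p = 0.0106) and 0.81 (0.00976). With LPS in WT BMDCs 5 of 8 tested neutrophil genes were lower, and 4 of 8 for the KO label without stimulation, against the same shares of all genes. Both comparisons share the 2 unstimulated WT libraries.

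One Fc receptor-like gene outside the 6, picked after its values were seen, was found almost only in tumors. Fcrls, which is known from mouse microglia, had 155 and 156 CPM in late and 115 and 62.4 CPM in early tumoral DCs, and 0 to 7 counts per BMDC library. The 7 NK cell genes, whose cells carry FcγRIII, summed to 132 and 61.0 CPM in late against 505 and 409.6 CPM in early tumoral libraries. Of these 7 genes 0 were called, where 0.0230% of all genes were. Fcgr3 was at 619 and 534 CPM in late and 425 and 375 CPM in early libraries. The part of NK cells in the Fcgr3 values was not tested. In the T cell list 1 of 8 genes, Lck, was lower in late DCs (-2.25, edgeR adjusted p = 0.0444).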
